A study of Homo sapiens with 16 samples.

Results

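A set of 8 genes that are lost or inactivated in kidney cancer were followed through the RNA of 4 cell lines from human clear cell renal cell carcinoma (ccRCC), namely 769-P, A498, CAKI-2 and 786-O. The genes were a fixed list of known tumour suppressors, PBRM1, BAP1, SETD2, ARID1A and TSC1, together with CDKN2A, CDKN2B and MTAP of chromosome band 9p21, and they were 8 of the 57773 genes in the count table. All lines expressed Cas9 from a lentivirus with a guide RNA, as selected populations and not as clones. Each line had 1 library with a control guide (sgCtrl) and 2 libraries with guides against KDM5C (sgKDM5C, guides 4 and 5). 786-O and CAKI-2 also had 2 libraries with guides against KDM5D (sgKDM5D, guides 2 and 4), which gave 16 libraries in 10 groups. KDM5C and KDM5D are demethylases of lysine 4 of histone H3, encoded on the X and the Y chromosome. The 2 guides against a gene served as replicates, nothing in the labels says that further cultures were grown, and each control is a single library. The p-values therefore measure the spread between guides in a population, which may in part be technical.

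In ccRCC the short arm of chromosome 3 is commonly lost with VHL, and the same arm carries PBRM1, BAP1 and SETD2. PBRM1 is the defining subunit of PBAF, a SWI/SNF complex that moves nucleosomes, and ARID1A defines the related BAF complex. BAP1 removes ubiquitin from histone H2A, and SETD2 places the trimethyl mark on lysine 36 of histone H3. CDKN2A encodes p16INK4a, an inhibitor of CDK4 and CDK6, and, from another first exon, p14ARF, an inhibitor of MDM2. Gene-level counts do not separate these products. CDKN2B encodes p15INK4b, a second inhibitor of CDK4 and CDK6. MTAP, an enzyme of methionine salvage, lies beside CDKN2A and is often deleted with it in tumours. TSC1 (hamartin) restrains mTORC1 together with TSC2.

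The libraries held 23.4M to 41.6M counts (M, mega), and levels are given as counts per M (CPM) of the TMM-scaled library total, on which 3 counts in 1 library were worth 0.0691 to 0.128 CPM. KDM5C transcript was at 26.2% to 57.3% of the control of its line in the 8 sgKDM5C libraries and at 91.5% to 106% in the 4 sgKDM5D libraries. KDM5D transcript was at 76.2% to 103% of control in the sgKDM5D libraries, so the transcript does not check that label. The renal transcription factor PAX8 had 144 to 967 CPM in all libraries and PAX2 had 5.33 to 60.3 CPM, whereas the leukocyte marker PTPRC had 0 to 2 counts. Of the other kidney markers VIM and KRT18 were detected in all libraries, CUBN had 26 to 1167 counts, and CA9 and LRP2 were at 0 in some. DNA of the lines was not analysed here, so an absent transcript is reported as such.

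Where the values of single libraries follow, they stand in the order control, sgKDM5C guide 4, sgKDM5C guide 5 and then, for 786-O and CAKI-2, sgKDM5D guide 2 and sgKDM5D guide 4. Levels were first compared among the 4 lines, with the sgCtrl and both sgKDM5C libraries of each line. In bulk RNA fewer expressing cells and less RNA per cell cannot be told apart. Of the 8 genes, 7 had the 60 counts needed for a test, and the quasi-likelihood F-test of edgeR gave a difference among the lines for these 7 (adjusted p from 2.15e-08 for PBRM1 to 0.0196 for SETD2). The same test called 90.5% of the 20175 genes tested, so that a call between these lines is the rule and not a property of the tumour suppressors. CDKN2A, with 43 counts in all, stayed below the filter, and CDKN2B passed it through 769-P alone and therefore had to differ. The width of the differences says more than the call. The difference between the highest and the lowest line mean on the log2 scale was 0.41 for BAP1, 0.41 for SETD2, 0.50 for MTAP and 0.56 for TSC1, while the median over the tested genes was 1.77. A range at least this wide was found in 97.4%, 97.4%, 95.4% and 94.1% of tested genes, respectively. ARID1A, with 1.58, and PBRM1, with 2.33, lay nearer the middle, since 55.7% and 36.9% of tested genes varied as widely.

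CDKN2B apart, pairs of lines were told apart in 20 of 36 comparisons over the 6 genes that were detected in every library. The number was 4 of 6 for 769-P against 786-O, where 50.0% of all tested genes were called, and 3 of 6 for 769-P against A498, where 69.9% were. It was 1 of 6 for 769-P against CAKI-2 (background 63.8%) and 5 of 6 for A498 against 786-O (background 68.7%). A498 and CAKI-2 differed in 3 of 6 (background 65.8%), and CAKI-2 and 786-O in 4 of 6 (background 63.3%). 786-O had the highest mean level of all 6 genes. How many of all tested genes were highest in 786-O was not counted, so this is not shown to be a trait of the tumour suppressors.

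**Figure D1:**
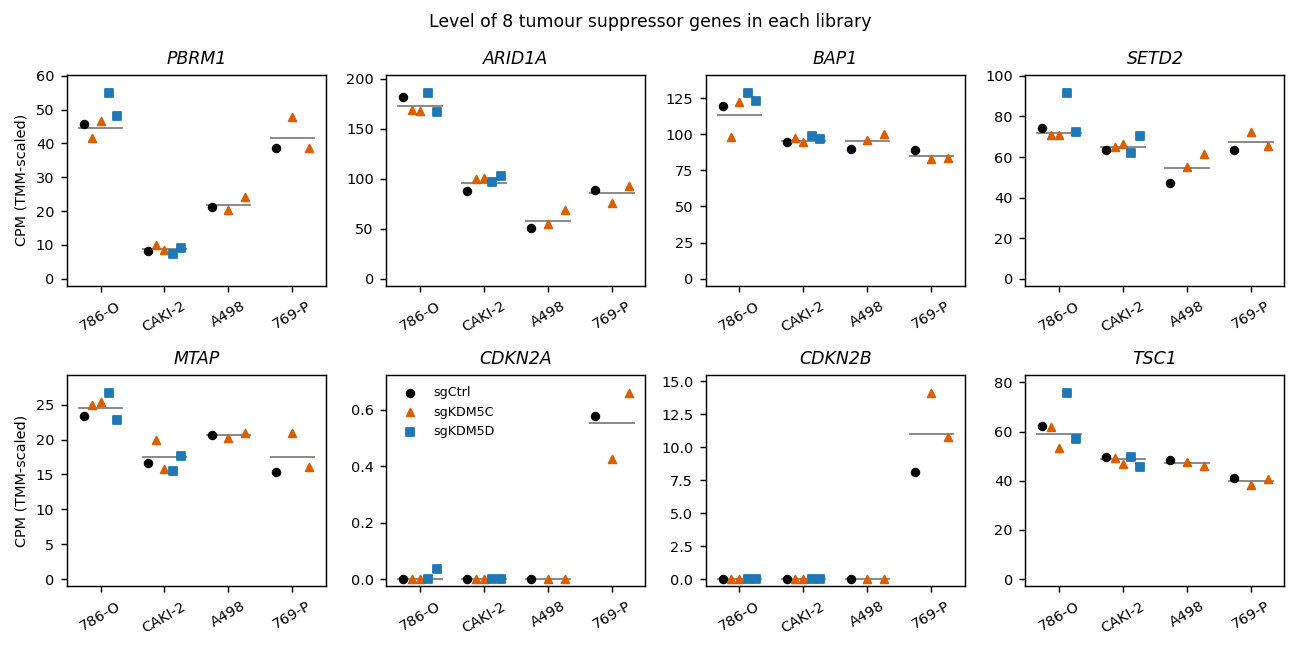
Level of each gene in every library, in CPM of TMM-scaled totals on axes that start at 0, by cell line. Black circles are sgCtrl, orange triangles sgKDM5C and blue squares sgKDM5D libraries, and the grey lines are the means of sgCtrl and sgKDM5C libraries (n = 3 per line); PBRM1 spans 8.85 to 44.6 CPM between lines, and CDKN2A and CDKN2B rise above the baseline in 769-P alone apart from 1 count of CDKN2A.

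The listed 9p21 genes from MTAP to DMRTA1 fell into those present in all lines and those detected in a single line. CDKN2A (ENSG00000147889, GRCh37 chromosome 9, 21967751 to 21995300, minus strand) had 14, 12 and 16 counts in the 3 libraries of 769-P. In 786-O it had 0 counts in 4 libraries and 1 in the sgKDM5D 4 library, and all 5 libraries of CAKI-2 and all 3 of A498 had 0. Expression in 769-P was low, at 0.554 ± 0.117 CPM (SD, n = 3). Against the 0 counts in the sgCtrl and sgKDM5C libraries of the other lines this was at least 14.1-fold higher than in A498, at least 15.4-fold higher than in 786-O and at least 20.1-fold higher than in CAKI-2, with a floor of 3 counts over the 3 libraries of a line that covers counting error only. Of the exon bases of CDKN2A, 15.3% lie opposite exons of the antisense gene CDKN2B-AS1, and since the strand setting of the counting is not given in the sources used here, some of these few counts could belong to the antisense gene.

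CDKN2B (ENSG00000147883, chromosome 9, 22002902 to 22009304, minus strand), 7.6 kb beyond CDKN2A, followed the same division with far more reads. The 769-P libraries held 197 (sgCtrl), 396 (sgKDM5C 4) and 263 (sgKDM5C 5) counts, or 11 ± 2.99 CPM. No count of CDKN2B was found in the 13 libraries of 786-O, CAKI-2 and A498. The 769-P level was at least 307-fold higher than in 786-O, at least 399-fold higher than in CAKI-2 and at least 280-fold higher than in A498. Per kilobase of exon, CDKN2B reached 2.75 CPM in 769-P and CDKN2A 0.142 CPM. No exon of CDKN2B is shared with another gene of the annotation.

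The genes on either side were transcribed in all lines. MTAP (ENSG00000099810, chromosome 9, 21802635 to 21937650, plus strand) ends 30.1 kb before CDKN2A and had 372 to 810 counts in every library. The libraries of 786-O had 23.4, 24.9, 25.3, 26.6 and 22.8 CPM, and those of CAKI-2 had 16.6, 19.98, 15.8, 15.5 and 17.7 CPM. A498 had 20.7, 20.2 and 20.9 CPM and 769-P had 15.3, 20.9 and 16.1 CPM. MTAP transcript was thus present both in the line with CDKN2A and CDKN2B transcripts and in the lines without them. The 769-P and CAKI-2 means (17.4 ± 3.02 and 17.5 ± 2.23 CPM) gave a log2 fold change of -0.03 (SE 0.159, adjusted p = 0.880 in edgeR). 786-O, at 24.6 ± 1.02 CPM, exceeded 769-P (adjusted p = 0.0133) and CAKI-2 (adjusted p = 0.0140), and no difference from A498 was called (20.6 ± 0.372 CPM, adjusted p = 0.210). Exons of 2 other transcripts on the same strand cover 7.9% of the MTAP exons.

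On the other flank, CDKN2B-AS1, the antisense long noncoding RNA (also known as ANRIL), had 17, 22 and 18 counts in 769-P and 0 or 1 in each library of the other lines. DMRTA1, the next listed gene 437.5 kb beyond CDKN2B, was again detected in all libraries, with 57 to 569 counts. In contrast to CDKN2B it was lowest in 769-P, with 2.61 ± 0.234 CPM, beside 19.2 ± 2.62 in A498, 13.8 ± 1.11 in CAKI-2 and 8.36 ± 0.904 in 786-O. The missing transcripts therefore comprised CDKN2A, CDKN2B-AS1 and CDKN2B and not MTAP or DMRTA1 in each of the 3 lines. Whether the DNA of this interval is missing or silent in these lines cannot be told apart from RNA counts.

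**Figure D2:**
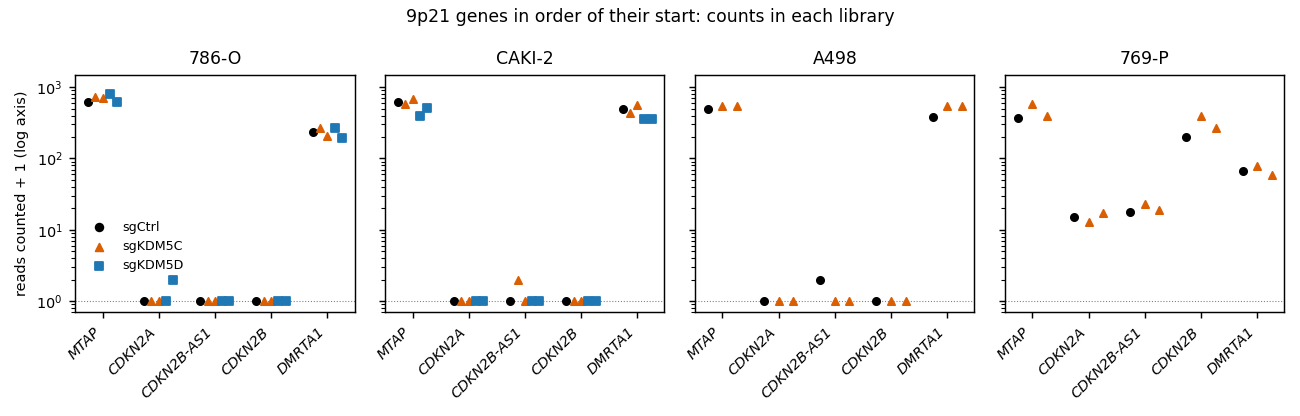
Reads counted plus 1 in each library (log axis) for 5 genes of 9p21 in order of their start, in 1 panel per cell line; the dotted line marks 0 counts. CDKN2A, CDKN2B-AS1 and CDKN2B lie at 0 or 1 count in 786-O, CAKI-2 and A498 and at 12 to 396 counts in 769-P, between MTAP and DMRTA1, which have 57 or more counts in all libraries.

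The 250 bases before the start of these genes are shown because CDKN2A, with its 2 starts, and CDKN2B were missing together in 3 lines, whereas MTAP transcript was present in all lines. Counts per gene do not show which start was used. The sequences come from the RefSeq promoter table (GRCh38.p14) and each had 1 exact match in GRCh37, whose coordinates are given. They are written 5′ to 3′ on the strand of the gene, with each CG dinucleotide, the target of DNA methylation, in capitals.
CDKN2A, p16INK4a start, chr9:21974857-21975106, minus strand: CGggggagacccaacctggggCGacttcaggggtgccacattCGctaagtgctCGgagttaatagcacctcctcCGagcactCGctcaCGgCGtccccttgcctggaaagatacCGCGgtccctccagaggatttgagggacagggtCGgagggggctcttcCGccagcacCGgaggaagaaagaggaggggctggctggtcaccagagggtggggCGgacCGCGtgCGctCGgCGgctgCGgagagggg
CDKN2A, p14ARF start, chr9:21995324-21995573, minus strand: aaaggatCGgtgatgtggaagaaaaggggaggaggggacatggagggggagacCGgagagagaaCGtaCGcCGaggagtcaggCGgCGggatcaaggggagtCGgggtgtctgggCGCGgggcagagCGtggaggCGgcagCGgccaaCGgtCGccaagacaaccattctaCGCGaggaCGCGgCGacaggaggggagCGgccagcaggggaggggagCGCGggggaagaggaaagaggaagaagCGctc
CDKN2B, chr9:22009305-22009554, minus strand: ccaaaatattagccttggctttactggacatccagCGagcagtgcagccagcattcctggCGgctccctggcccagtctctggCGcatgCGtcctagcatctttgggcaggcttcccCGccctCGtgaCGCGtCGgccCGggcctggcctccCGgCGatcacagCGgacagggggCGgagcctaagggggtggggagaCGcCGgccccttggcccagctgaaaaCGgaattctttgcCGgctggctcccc
MTAP, chr9:21802385-21802634, plus strand: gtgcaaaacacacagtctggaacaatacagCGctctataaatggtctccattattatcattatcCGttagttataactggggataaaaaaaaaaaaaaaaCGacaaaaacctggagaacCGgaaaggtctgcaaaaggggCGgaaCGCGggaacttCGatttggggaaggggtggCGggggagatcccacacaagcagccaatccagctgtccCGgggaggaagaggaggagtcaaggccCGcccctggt

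The windows of the CDK inhibitor genes held more of the dinucleotide than the median window of the table. The p16INK4a window held 20 CG, the p14ARF window 24 and the CDKN2B window 18, and as many or more were found in 32.4%, 23.7% and 36.8% of the 35116 promoter windows of the table. The MTAP window held 11, the median of the table, and 50.3% of windows had as many. Windows of other members, detected in every library, also lay above the median. They held 40 and 26 CG for PBRM1, 30 for ARID1A, 22 for TSC1 and 21 for SETD2. A count above the median was thus not particular to the genes missing in 3 lines. Methylation was not measured, and the count is a description of the sequence only.

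PBRM1 (ENSG00000163939, chromosome 3, 52579368 to 52719933, minus strand) varied most among the 6 genes that every line expressed. The libraries of 786-O had 45.8, 41.5, 46.5, 54.9 and 48.2 CPM. Those of CAKI-2 had 8.11, 9.94, 8.50, 7.41 and 9.04 CPM. A498 had 21.3, 20.2 and 24.3 CPM, and 769-P had 38.7, 47.9 and 38.5 CPM. No library of CAKI-2 reached those of A498, and none of A498 reached those of 786-O or 769-P, which overlapped.

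The PBRM1 means of sgCtrl and sgKDM5C libraries were 44.6 ± 2.69 CPM in 786-O, 41.7 ± 5.37 in 769-P, 21.9 ± 2.09 in A498 and 8.85 ± 0.963 in CAKI-2 (SD, n = 3 each), a 5.04-fold span. CAKI-2 was lower than 786-O by a log2 fold change of -2.38 (SE 0.161, adjusted p = 1.82e-08) and lower than A498, the next line in the order (A498 against CAKI-2 1.33, SE 0.158, adjusted p = 4.33e-06). 769-P exceeded A498 by 0.91 (SE 0.152, adjusted p = 9.44e-05). The highest neighbours in the order, 786-O and 769-P, were not told apart (adjusted p = 0.490). These calls held under the 20 alternatives tried.

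PBRM1 lies on the same chromosome arm as BAP1, 135.3 kb from it, so its surroundings were examined. Within 500 kb, 19 other tested genes that averaged at least 100 counts were compared in CAKI-2 with the mean of the other 3 lines on the log2 scale. Their median difference was -0.17, 12 of 19 were lower. The lowest were SFMBT1 (-1.53) and PRKCD (-1.05), and none was as low as PBRM1, at -1.95. BAP1 itself stood at -0.03 and SETD2, 5.23 Mb from BAP1, at 0.02. In A498 PBRM1 differed by -0.21 from the mean of the other 3 lines, and its neighbours by a median of -0.13. For PBRM1 that mean combines the higher 786-O and 769-P with the lower CAKI-2, so A498 was not level with any of them.

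ARID1A (ENSG00000117713, chromosome 1, 27019727 to 27108595, plus strand) had the second widest range of the 6 genes, below the median of all tested genes. Its levels were 182, 169, 168, 186 and 166 CPM in 786-O. CAKI-2 had 88.0, 99.7, 101, 96.7 and 103 CPM. The A498 libraries had 51.1, 54.8 and 68.4 CPM and the 769-P libraries 88.6, 76.1 and 92.6 CPM. Every library of 786-O lay above, and every library of A498 below, all those of the other lines.

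The ARID1A means were 58.1 ± 9.14 CPM in A498, 85.8 ± 8.62 in 769-P, 96.1 ± 7.08 in CAKI-2 and 173 ± 7.72 in 786-O, a 2.98-fold span in an order unlike that of PBRM1. A498 was below 786-O by a log2 fold change of -1.64 (SE 0.130, adjusted p = 6.02e-08), and 769-P was above A498 by 0.62 (SE 0.127, adjusted p = 0.000531). CAKI-2 and 769-P were not told apart (adjusted p = 0.424). In 786-O ARID1A stood 1.15 above the mean of the other lines, and the 15 genes within 500 kb had a median of 0.74. Of these 15, 13 stood above 0, and 12 lay at or below ARID1A. In A498 ARID1A stood at -0.96, the neighbours had a median of -0.18, and 2 of 15 were as low as ARID1A. The other lines had neighbours further from 0 than ARID1A itself, with a median of -0.72 beside -0.21 for ARID1A in 769-P and a median of 0.59 beside 0.02 in CAKI-2.

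**Figure D3:**
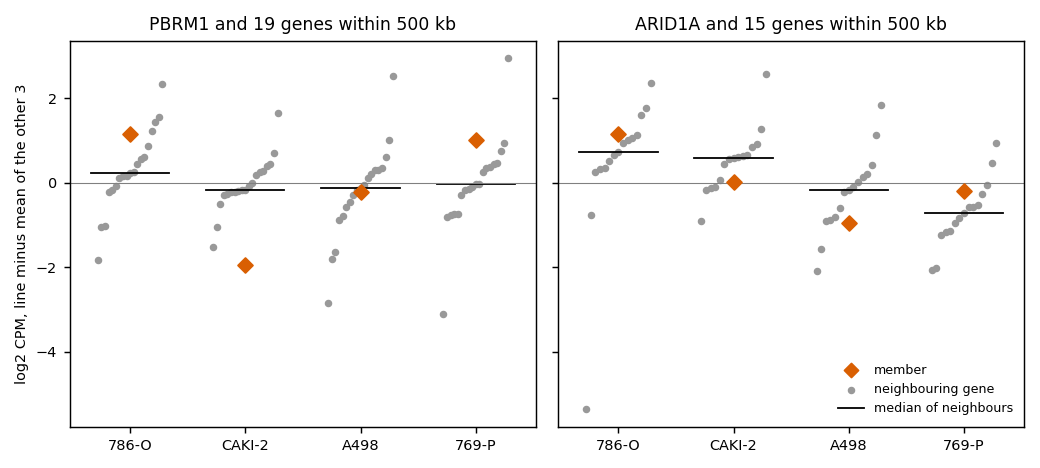
Level of PBRM1 and ARID1A (orange diamonds) and of tested genes within 500 kb that averaged at least 100 counts (grey points, sorted within a line) in each line minus the mean of the other 3 lines, as log2 CPM; black lines are medians of the neighbours. PBRM1 lies below all 19 neighbours in CAKI-2 at -1.95, and in 786-O both ARID1A (1.15) and the median of its 15 neighbours (0.74) are above 0.

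Among the other SWI/SNF genes, 25 of 25 differed among the lines, beside 90.5% of all tested genes, and the median range of line means was 1.56 on the log2 scale. The range of DPF2, which encodes a PHD finger subunit of BAF, was the widest. DPF2 had 0, 0 and 2 counts in the libraries of 769-P and 860 to 2220 counts in the 13 libraries of the other lines (adjusted p = 9.62e-12). SMARCC1, a core subunit of both BAF and PBAF, had 35.1 ± 4.92 CPM in A498, the line with the least ARID1A, and 108 to 209 CPM as the means of the other lines (adjusted p = 1.70e-09). A low level in A498 was common in this list. For A498 against 786-O, 23 of 25 were called, 21 lower and 2 higher, where 68.7% of all tested genes were called in either direction. How many of all tested genes were lower in A498 was not counted, so this is not shown to be a trait of SWI/SNF genes. In the list of BAP1 partners below, 9 of 11 called genes were lower for the same pair and 2 higher. In the TSC and mTORC1 list 6 of 19 were lower and 13 higher.

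BAP1 (ENSG00000163930, chromosome 3, 52435024 to 52444024, minus strand) was among the most even genes. It measured 119.7, 98.1, 123, 129 and 123 CPM in 786-O. In CAKI-2 it measured 94.4, 97.3, 94.4, 98.7 and 96.4 CPM. The 3 libraries of A498 had 89.7, 96.0 and 100.4 CPM, and those of 769-P had 89.1, 83.0 and 83.3 CPM. Apart from the 786-O sgKDM5C 4 library, the 786-O libraries lay above those of the other lines. 786-O (113.5 ± 13.4 CPM) exceeded 769-P (85.1 ± 3.42 CPM), with a log2 fold change of 769-P against 786-O of -0.42 (SE 0.115, adjusted p = 0.00737). Its difference from CAKI-2 (95.3 ± 1.67 CPM) was at the threshold (adjusted p = 0.0499) and was lost in 17 of 20 alternatives, and the difference from A498 (95.4 ± 5.37 CPM, adjusted p = 0.0352) in 6 of 20. Per kilobase of exon BAP1 was the most abundant of the 8 genes in each line, at 18.04 to 24.1 CPM. ARID1A, at 3.64 to 10.9 CPM, came next except in A498, where SETD2 had 3.81 CPM and ARID1A 3.64 CPM. The exon lengths are those of the annotation matched here, and the annotation used for the counting is not given.

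Of 18 tested partners of BAP1 and subunits of Polycomb repressive complex 1, which places the ubiquitin that BAP1 removes, 16 differed among lines, near the 90.5% of all tested genes. KDM1B, a demethylase that joins BAP1 complexes, had 6.70 ± 1.25 CPM in A498 and 22.4 to 45.4 CPM as the means of the other lines (adjusted p = 2.71e-09). HCFC1, the host cell factor bound by BAP1, was also lowest in A498, at 55.0 ± 4.32 CPM, with means of 235 to 350 CPM in the other lines (adjusted p = 1.20e-08).

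SETD2 (ENSG00000181555, chromosome 3, 47057918 to 47205603, minus strand) had 74.1, 71.0, 70.9, 91.5 and 72.4 CPM in the libraries of 786-O. CAKI-2 had 63.5, 64.8, 66.2, 61.9 and 70.5 CPM. Its levels were 47.2, 55.2 and 61.4 CPM in A498 and 63.7, 72.3 and 65.6 CPM in 769-P. The A498 libraries were the lowest, and those of 769-P overlapped both 786-O and CAKI-2. The mean of A498 was 54.6 ± 7.14 CPM, beside 64.8 ± 1.34 for CAKI-2, 67.2 ± 4.52 for 769-P and 72.0 ± 1.83 for 786-O. A498 was below 786-O (log2 fold change -0.47, SE 0.126, adjusted p = 0.00432), and its differences from 769-P (adjusted p = 0.0276) and CAKI-2 (adjusted p = 0.0491) were lost in 3 and 6 of 20 alternatives. Without the A498 sgKDM5C 4 library the test over the 4 lines no longer called SETD2.

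In the list of writers, erasers and readers of H3K36 methylation 17 of 17 tested genes differed among lines (90.5% over all genes), with a median range of 1.27 on the log2 scale. DNMT3B, a DNA methyltransferase that reads this mark, had 225 ± 2.59 CPM in CAKI-2 and 29.3 ± 11.2 CPM in 786-O (adjusted p = 2.82e-08). NSD2, which dimethylates the same residue, had 430 ± 37.6 CPM in 786-O and 74.3 ± 3.90 CPM in A498 (adjusted p = 7.23e-10).

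TSC1 (ENSG00000165699, chromosome 9, 135766735 to 135822261, minus strand) had 62.2, 61.9, 53.3, 75.6 and 56.9 CPM in the libraries of 786-O. In CAKI-2 the values were 49.9, 49.4, 47.0, 49.5 and 45.6 CPM. They were 48.3, 47.7 and 46.1 CPM in A498 and 41.3, 38.2 and 40.7 CPM in 769-P. All libraries of 786-O were above those of the other lines, and all of 769-P below, but not all of these differences were called. 786-O (59.1 ± 5.06 CPM) exceeded 769-P (40.0 ± 1.61 CPM) with a log2 fold change of 769-P against 786-O of -0.57 (SE 0.133, adjusted p = 0.00253). CAKI-2 (48.7 ± 1.52 CPM) and A498 (47.4 ± 1.14 CPM) were not told apart (adjusted p = 0.795). A498 was below 786-O (adjusted p = 0.0388, lost in 5 of 20 alternatives), while CAKI-2 against 786-O (adjusted p = 0.0711) and 769-P against CAKI-2 (adjusted p = 0.0779) and against A498 (adjusted p = 0.124) were not called.

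The TSC and mTORC1 list differed among lines in 24 of 24 tested genes (90.5% over all genes), with a median range of 1.40 on the log2 scale. DEPTOR, an inhibitor bound to mTOR, had 53.3 ± 7.52 CPM in CAKI-2 and 0.618 to 2.22 CPM as the means of the other lines (adjusted p = 1.04e-11). RRAGD, a Rag GTPase that brings mTORC1 to lysosomes, had 0 to 6 counts in the libraries of 786-O and 22.4 ± 5.26 CPM in CAKI-2 (adjusted p = 5.47e-10).

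The genes that act with the 9p21 proteins differed among lines in 17 of 17 tested members of the RB and p53 axis, where 90.5% of all tested genes did. CDKN2C, which encodes p18INK4c, a further inhibitor of CDK4 and CDK6, had 8.20 ± 1.95 CPM in 769-P, 14.6 ± 4.68 in A498, 26.9 ± 2.88 in CAKI-2 and 148 ± 15.3 in 786-O (adjusted p = 1.10e-10). It was thus lowest in the line with CDKN2A and CDKN2B transcripts. E2F2, a transcription factor held back by RB, had 6 to 22 counts in the A498 libraries (0.614 ± 0.312 CPM) and means of 13.7 to 28.9 CPM in the other lines (adjusted p = 4.92e-11). Of the methionine salvage and PRMT5 list, 17 of 17 differed, against the same background. IL4I1, an amino acid oxidase, had 0.693 ± 0.0509 CPM in 769-P and 22.1 ± 4.18 in CAKI-2 (adjusted p = 8.50e-09), and SRM, spermidine synthase, had 51.6 ± 8.89 CPM in A498 and 259 ± 67.1 in 786-O (adjusted p = 4.47e-08). On 9p21 the list around the locus was called in 17 of 19, near that background. HACD4, an acyl dehydratase of fatty acid elongation, had 22.3 ± 4.49 CPM in A498, 6.94 ± 1.54 in CAKI-2, and 0 to 8 counts in each library of 786-O and 769-P (adjusted p = 3.88e-10), and MOB3B had 0.0251 ± 0.0434 CPM in 786-O and 2.21 to 3.70 CPM as the means of the other lines (adjusted p = 2.43e-07).

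To name genes with a like pattern, Pearson's r of log2 CPM was computed over the 16 libraries as a measure of likeness. The libraries fall into 4 lines, so the measure follows the order of the lines and carries no test. PBRM1 was most like GLIPR1 (0.994) and PSMD14 (0.992), and ARID1A most like PCDHGC3 (0.990) and RPN2 (0.988). The more even genes had nearest patterns of lower likeness, namely CTU2 (0.942) and PHF2 (0.937) for BAP1, BBX (0.938) and RNF111 (0.936) for SETD2, UBN2 (0.931) and CD47 (0.929) for MTAP, and RXRA (0.937) and CTSV (0.935) for TSC1.

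Whether the tumour suppressors respond to KDM5C mutation was asked by comparing the sgKDM5C libraries with the control of their line. No member was called by edgeR in any line or over the 4 lines. None of the members reached an unadjusted p under 0.05 in any of these comparisons, and DESeq2 called none either. Over all tested genes edgeR called 0.00496% in 769-P, 0.00496% in A498, 0.0% in CAKI-2, 0.00991% in 786-O and 0.00991% for the mean over lines, so few genes of any kind passed. All comparisons with a control within a line share that single control library.

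The averages over the lines had the narrowest intervals. The mean sgKDM5C log2 fold change was 0.09 for PBRM1 (95% interval -0.14 to 0.32), 0.07 for ARID1A (-0.12 to 0.26), -0.02 for BAP1 (-0.19 to 0.16), 0.10 for SETD2 (-0.09 to 0.29), 0.12 for MTAP (-0.12 to 0.36) and -0.07 for TSC1 (-0.27 to 0.13). The adjusted p was 0.917 or more for each. Intervals within a line were wider. Over the 6 genes they ran from -0.51 to 0.58 in 786-O and from -0.47 to 0.77 in 769-P. In A498 they ran from -0.49 to 0.69 and in CAKI-2 from -0.45 to 0.66. A change within these limits in 1 line could thus pass without a call. The intervals are not adjusted for the number of genes tested, whereas a call is, so a larger change could also pass without one. The median of the 6 genes was 0.08, beside 0.04 over all tested genes. TSC1 was lower than control in 8 of 8 sgKDM5C libraries, with single ratios from -0.22 to -0.01 on the log2 scale, and the other 5 genes lay on both sides. With the sgKDM5D libraries included, TSC1 was higher than control in 1 of 12, so the direction was not particular to sgKDM5C. The ratios of a line share 1 control, and the share of all tested genes on 1 side was not counted.

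Single libraries showed how little the genes moved. Over the 6 genes and 12 mutant libraries, the 72 log2 ratios to the control of the line ran from -0.29 (BAP1 in 786-O sgKDM5C 4) to 0.45 (MTAP in 769-P sgKDM5C 4), with a median of 0.03, and 0 of them exceeded 0.5 in size. ARID1A was below control in both 786-O sgKDM5C libraries (-0.10 and -0.12) and above it in both of CAKI-2 (0.18 and 0.20) and A498 (0.10 and 0.42). The test of a difference of the sgKDM5C effect between lines did not call ARID1A (adjusted p = 1 in edgeR, unadjusted 0.379) or any other member, in edgeR or in DESeq2. It called 0.0% of all genes, with 462 genes at an unadjusted p under 0.05.

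CDKN2B had the largest single mutant-to-control ratio, and its ratios can be formed in 769-P alone. Its log2 ratios were 0.79 in the sgKDM5C 4 library and 0.41 in the sgKDM5C 5 library, and the fitted log2 fold change was 0.62 (SE 0.370, 95% interval -0.22 to 1.46, adjusted p = 1, higher in 2 of 2 libraries). The interval holds both no change and a change of more than 1. CDKN2A counts in the same libraries (14, 12 and 16) lay on both sides of the control. In 786-O, CAKI-2 and A498 neither gene appeared with sgKDM5C, at 0 counts in all 6 mutant libraries, and MTAP, next to them, had ratios of -0.07 to 0.27 there.

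**Figure D4:**
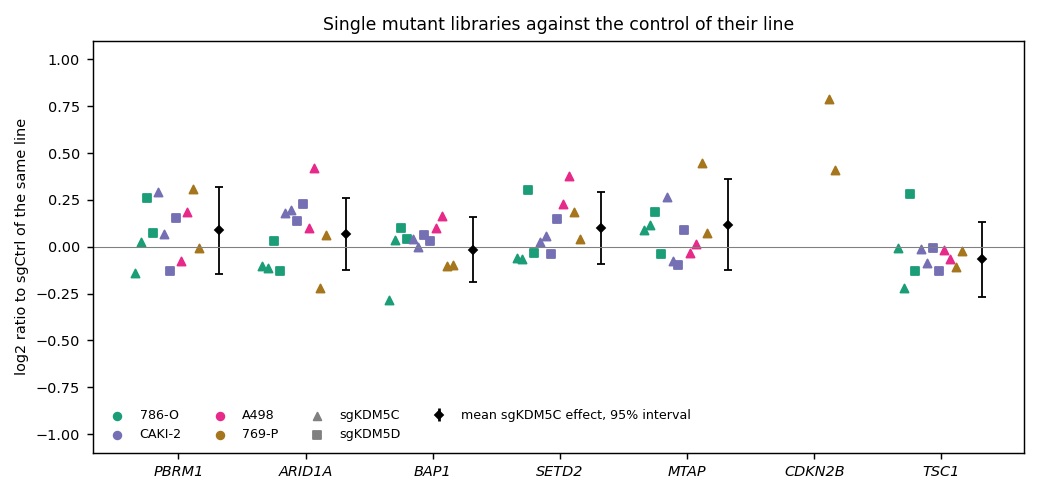
Log2 ratio of each mutant library to the sgCtrl library of its line for 7 genes; triangles are sgKDM5C and squares sgKDM5D libraries, coloured by line, and black diamonds with bars are the mean sgKDM5C effect over 4 lines with its 95% interval (n = 8 mutant and 4 control libraries). The ratios of the 6 genes found in all lines stay between -0.29 and 0.45, and the 2 CDKN2B ratios of 769-P are 0.79 and 0.41.

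With the guides against KDM5D, 0 of the 6 genes with counts were called in 786-O, where 0.0149% of all tested genes were, and 0 in CAKI-2, where 0.0% were. None had an unadjusted p under 0.05, and DESeq2 called none. In 786-O the fitted log2 fold changes were -0.05 to 0.17 and in CAKI-2 -0.07 to 0.18, with intervals that together ran from -0.48 to 0.62. In 786-O the sgKDM5D 2 library had the highest level of that line for all 6 genes. Its total of 30.9M counts was the largest of the 786-O libraries and its TMM factor was 0.984, within the range of the line. The part of total and factor in this was not tested. How many of all tested genes were highest in that library was not counted. In A498 the sgKDM5C 5 library was the highest for 5 of the 6 genes. Without the 786-O sgKDM5D 2 library, the sgKDM5D fold changes in 786-O were -0.12 to 0.08 and 2 of 6 were positive in place of 5 of 6.

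The mutants were also compared with each other, which leaves the control out. In 786-O, 5 of 6 genes were lower with sgKDM5C than with sgKDM5D, with a median log2 difference of -0.20, none called (smallest unadjusted p = 0.170, edgeR) while 0.0644% of all tested genes were. Without the sgKDM5D 2 library the median was -0.03 and 4 of 6 were lower. In CAKI-2 the median difference was 0.01 (none called, smallest unadjusted p = 0.401, background 0.0%). The 1 count of CDKN2A in the 786-O sgKDM5D 4 library is below the 3 counts taken as the floor.

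The partner genes were examined in the same comparisons. Of 137 tested genes in the 7 lists, none was called in any of the 10 guide comparisons by edgeR or DESeq2. The smallest adjusted p in edgeR was 0.749. Over all tested genes edgeR called 0.0% to 0.0644% in these comparisons, so the absence of calls is not particular to the lists. In edgeR, 28 of 1370 gene and comparison pairs had an unadjusted p under 0.05. Over the 20175 tested genes, 156 to 1119 genes per comparison did.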

How the data were processed

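RNA of the cell populations was sequenced by the authors from paired-end TruSeq Stranded libraries. Raw counts per gene and library were deposited in 1 table, and the submitters' processing notes name Trimmomatic 0.38, STAR 2.5.2b and GRCh37. The counting tool, its strand setting and the annotation release are not given in the sources used here. The header names 16 libraries and leaves the gene column unnamed, so each name was read as the column to its right. Of 57773 gene IDs, 55538 were matched to GENCODE release 44 lifted to GRCh37, which gave positions, exon lengths and overlaps, and 147 of 155 symbols in the 7 lists were found. Of the 8 members, 7 had an entry in the RefSeq promoter table.

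The 20175 genes whose counts summed to 60 or more were fitted with edgeR 4.0.16 in R 4.3.3 (TMM, quasi-likelihood F-test, 10 group means, all 16 libraries, 6 residual degrees of freedom). Benjamini-Hochberg adjustment covered every gene tested in a comparison, and genes were called at an adjusted p under 0.05. A line was the mean of its sgCtrl and sgKDM5C groups. SE was the absolute log2 fold change divided by the root of F, intervals are 95%, and single ratios used a prior count of 2. The members and lists were chosen with earlier results of these data known. Named were all members, the nearest 9p21 genes, per list the 2 called genes with the widest range of line means and at least 20 counts on average (up to 3 for guides), and, for members that averaged at least 100 counts, the 2 genes of most like pattern. PECAM1 was not matched. The fit was tested on simulated counts, with an outcome that is not reported here and on which no statement above rests. Alternatives were RLE size factors, DESeq2 1.42.0, filterByExpr, no filter, a replicate block, fits of single lines, sgKDM5C libraries alone, and leaving out guides, lines or, added after seeing the data, single mutant libraries. The comparison with genes within 500 kb was also added then. Libraries of a group differed by more than sampling noise (chi-square of 9.60 to 69.0 per gene).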

Additional observations from a re-analysis of the deposited data

How the results depend on the processing

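Of the 20 alternatives for the number of members that differ among the lines (7), the sgKDM5C libraries alone moved it most, to 4, with BAP1, MTAP and SETD2 no longer called. This setting has 8 libraries in place of 12 in the contrast and no controls, and it moved the number of line pairs told apart from 23 to 14 with CDKN2B included. Leaving out guides or single mutant libraries gave 6 to 7 members, with SETD2 lost without the sgKDM5C 4 libraries and without that of A498, and both looser filters on low counts gave 8, with CDKN2A added. PBRM1, ARID1A and TSC1 were called in 20 of 20 alternatives (highest adjusted p = 0.0378, for TSC1), and CDKN2B, which had to differ, counts among the 7. No fold change that was called changed its sign. Among the pair comparisons 42 values lost and 8 gained a call, all of BAP1, MTAP, SETD2 or TSC1. The number of members called with a guide was 0 in every comparison and alternative. Some list genes were called in 769-P or 786-O only where sgKDM5C 5 libraries were left out. Against control, their log2 fold changes were 1.76 for BMI1, 0.77 for RB1 and 0.68 for SMARCE1 in 769-P and 0.79 for DNMT3B in 786-O. Against sgKDM5D in 786-O, DNMT3B had 0.85. Such fits set 1 sgKDM5C library against 1 control library or against the 2 sgKDM5D libraries. A single library is assumed to vary like the groups that still have 2, so these fold changes have no replicate check. The guide numbers shared between lines did not pair the libraries, since the difference of guide 5 and guide 4 correlated by -0.117 to 0.136 between lines. With guide number as a replicate block, 7 members differed among lines, 20 pairs of lines, CDKN2B included, were told apart and 0 members were called with any guide. Depth limits CDKN2A to a floor of 3 counts in a library, and the unreplicated controls limit each comparison within a line.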
